A study of Mus musculus with 10 samples.

Results

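The 57 genes described here encode the soluble factors of translation, the eIF proteins that start protein synthesis and the eEF proteins that extend the chain. They are the genes of the count table whose mouse symbol begins with Eif or Eef and a number, without the eIF2 kinases, the sex-chromosome genes Eif2s3x, Eif2s3y and Eif1ax, and pseudogenes. The table holds 24421 genes, and 7 genes that matched the pattern were left out in this way. Counts came from a piece of the pancreas tail of female mice aged 12 weeks, with 1 library per mouse. All mice carried Ptf1aCreER, a Cre recombinase that tamoxifen switches on in acinar cells, the enzyme-secreting cells of the exocrine pancreas, and the nTnG reporter, a nuclear fluorescent marker of Cre activity. The 3 mice labelled Insr WT had 0 floxed alleles of Insr, the insulin receptor gene, the 3 labelled Insr Het had 1 and the 4 labelled Insr KO had 2. Cre can remove the floxed segment only in cells in which the Ptf1a driver is active, so other cell types of the piece are expected to keep the gene. Libraries are named by label and mouse number, as in WT-2404.

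Translation of most cellular mRNAs begins when eIF4E binds the cap at the 5′ end, the scaffold eIF4G and the helicase eIF4A join it, and eIF3 brings the small ribosomal subunit with the initiator tRNA carried by eIF2. eIF2B reloads eIF2 with GTP after each round, and eEF1A and eEF2 then deliver aminoacyl-tRNAs and move the ribosome along the message. Insulin receptor signalling reaches this machinery through the kinase complex mTORC1, which phosphorylates the eIF4E-binding proteins and controls translation of TOP mRNAs, messages that start with a C and a run of pyrimidines. Acinar cells devote a large part of their protein synthesis to digestive enzymes.

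The libraries held 11718559 to 19024351 gene counts, and they differed in how much of that was digestive enzyme mRNA. Enzyme genes took 58.6% to 77.7% of gene counts in 9 libraries and 15.9% in WT-2404. The scaling factor of that library (TMM, which sets the bulk of genes level between libraries) was 3.53, against 0.596 to 1.56 in the other libraries. All 10 acinar markers examined were counted in every library, but at unlike levels. They summed to 33804 CPM (counts per scaled library size of 1e6) in WT-2404 and to 276735 to 996522 CPM in the other libraries. Marker sums of some other cells also differed with the label. The summed level of 7 fibroblast genes was 1220 to 4324 CPM in WT, 494 to 954 in Het and 437 to 1097 in KO libraries. The 6 macrophage genes summed to 367 to 1451 CPM in WT, 193 to 303 in Het and 114 to 421 in KO libraries, and the 7 ductal genes to 677 to 1336, 322 to 545 and 242 to 575 CPM. The 5 islet hormone genes summed to 444 to 5409 CPM in WT, 4708 to 9337 in Het and 3401 to 8055 in KO libraries. The macrophage and islet ranges of WT and KO libraries overlapped. In WT, Het and KO libraries, 4 endothelial genes summed to 71.5 to 109, 96.8 to 112 and 73.1 to 146 CPM, with overlap between all labels. For 4 adipocyte genes the sums were 31.5 to 39.7, 50.8 to 64.9 and 36.9 to 80.2 CPM. For 6 lymphoid genes they were 35.8 to 63.3, 16.3 to 19.3 and 6.46 to 38.5 CPM. The part of these differences in the results below was not tested, and in a bulk piece fewer cells of a type and less RNA per cell cannot be told apart. Insr itself stood at 29.8 ± 9.88 CPM over WT mice (SD, n = 3), 38.5 ± 8.92 over Het mice (SD, n = 3) and 31.5 ± 5.95 over KO mice (SD, n = 4). Its KO against WT log2 fold change of 0.09 (SE 0.26, edgeR adjusted p = 0.864) does not check the labels, since gene counts of a whole piece of tissue cannot tell whether Cre cut the gene in its acinar cells.

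As a share of all gene counts, the 57 genes were largest in the WT library with the least enzyme mRNA. The share was 1.74% for WT-2404, 0.791% for WT-1860 and 0.653% for WT-2067. The Het libraries gave 0.774%, 0.570% and 0.652%, and the KO libraries 0.745%, 0.588%, 0.788% and 0.641%. Wilson 95% intervals of these shares reached at most from 1.736% to 1.748%, in WT-2404, and cover counting error only. When the enzyme genes were set aside, the order changed. The factor genes then took 2.07%, 1.91% and 2.32% of the remaining counts in the WT libraries, 2.73%, 2.42% and 2.33% in the Het libraries and 2.58%, 2.64%, 2.11% and 2.87% in the KO libraries. KO-2124, whose enzyme share of 62.6% was the lowest outside the WT group, lay within the WT range on this scale, and the other 6 Het and KO libraries lay above it.

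**Figure D1:**
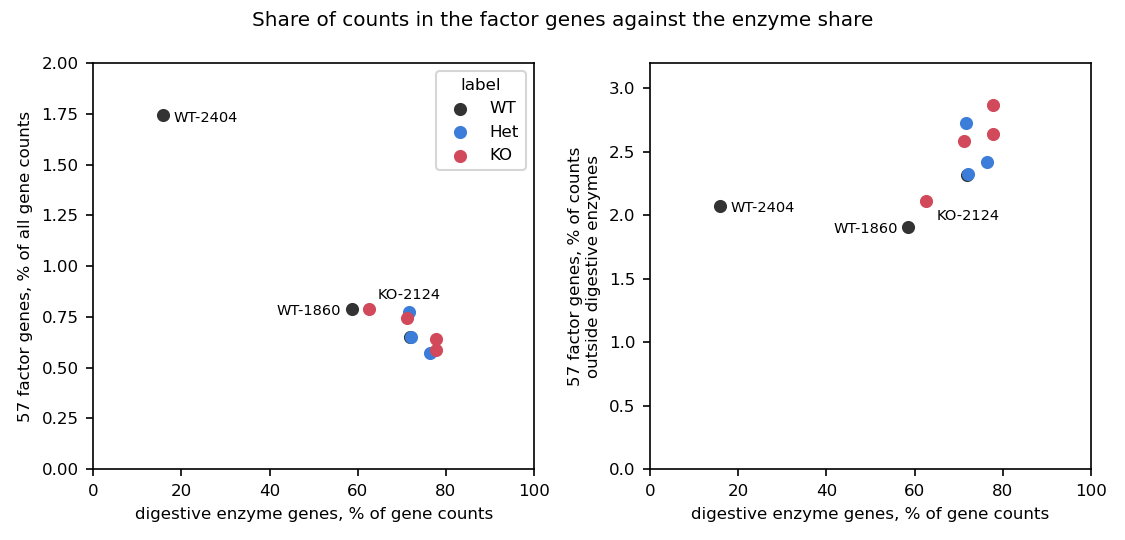
Share of counts in the 57 factor genes (vertical axis, %) against the share of gene counts in digestive enzyme genes (horizontal axis, %), 1 point per library; the left panel takes all gene counts as the whole and the right panel only counts outside the enzyme genes. WT-2404 stands apart at an enzyme share of 15.9%, with 1.74% of all counts but 2.07% of counts outside the enzymes in factor genes.

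A few elongation factors made up most of these counts. The 8 elongation genes held 61.7% to 69.0% of the factor counts of a library, eIF3 genes 10.4% to 12.6% and the cap-binding and helicase genes 12.4% to 16.1%. Eef1a1, which encodes the main eEF1A, the carrier of aminoacyl-tRNA, alone took 35.6% to 45.0%, and Eef2, the translocation factor, took 13.1% to 20.2%. Divided by exon length, mean levels over all libraries were 1659 CPM per kb for Eef1a1, 439 for Eef2, 176 for Eef1b2, 104 for Eef1g, 103 for Eif1 and 86.4 for Eif3h. At the other end, Eef1a2, the eEF1A form of muscle and neurons, stood at 0.337 and Eif5a2 at 0.246 CPM per kb. Eef1a2 had between 1 and 30 counts per library. The 3 genes Eif4e1b, Eif3j1 and Eif3j2 had 0 counts in every library, where an upper limit of 3 counts stands at 0.0501 to 0.395 CPM. Eif3j1 and Eif3j2 are near-identical copies whose reads can be lost in counting, so their 0 is uncertain. The other 54 genes passed the filter on low counts and were tested.

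Against the WT libraries, most factor genes stood higher in the KO libraries, by amounts that no single gene carried past the test. Of the 54 tested genes, 46 had a log2 fold change above 0, where 51.8% of all 13688 genes tested did, and their median was 0.42 against 0.03 over all genes. With edgeR's quasi-likelihood test, 0 of the 54 had an adjusted p under 0.05, and so did 0% of all genes tested. At an unadjusted p under 0.05, 13 genes were higher, or 24.1%, against 9.6% of all genes tested, and 2 were lower, or 3.70%, against 13.9%. The 9 genes with every KO library above every WT library were Eef1b2, Eef1d, Eif1b, Eif2b3, Eif3e, Eif3h, Eif3i, Eif3m and Eif4a2, or 16.7% of the members against a background of 6.74%. Eif4e3 and Eif5a2 had every KO library below every WT library, or 3.70% against 9.17%. DESeq2's Wald test, with an adjusted p under 0.05, called Eef1b2, Eef1d, Eif3g, Eif3m and Eif4a2 higher, 5 genes or 9.26% against 2.14% of all genes, and Eif4e3 lower, 1.85% against 5.27%.

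The direction of the whole family depends on how libraries are scaled: with library size alone, the median was -0.80 for KO against WT, beside -1.17 for all genes, and 1 of 54 members was above 0. With the enzyme share of each library as a covariate the median KO against WT difference was 0.15, with 44 of 54 above 0. Single WT libraries also moved the counts. Without WT-2404, the genes higher at an unadjusted p under 0.05 numbered 4, or 7.41% against a background of 4.13%, namely Eef1b2, Eif3g, Eif3m and Eif4a2, and Eif4e3 was lower, or 1.85% against 5.29%. Without WT-2067, edgeR called 9 members higher at an adjusted p under 0.05, or 16.7% against 6.22% of all genes tested, and Eif4e3 lower, or 1.85% against 7.42%. The WT libraries then left, WT-2404 and WT-1860, had the lowest enzyme shares of all libraries, 15.9% and 58.6%. The same holds wherever WT-2067 is left out below, and the part of the enzyme share in these calls was not tested. Each mouse contributed 1 library, so these p-values measure the spread between mice.

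**Figure D2:**
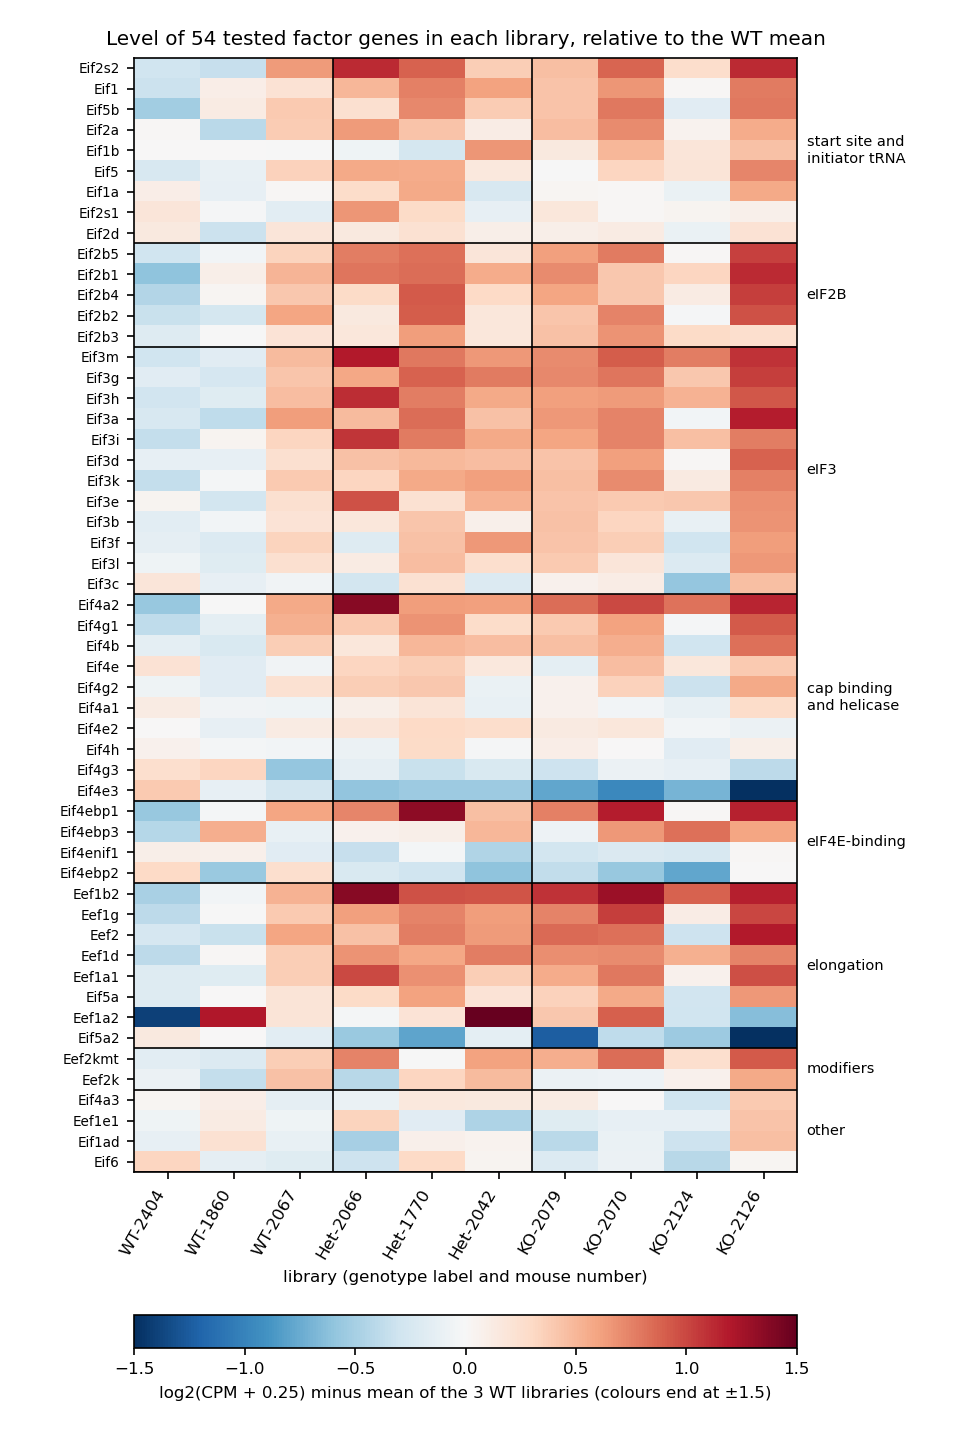
Level of each of the 54 tested factor genes (rows, grouped by role) in each of the 10 libraries (columns), as log2(CPM + 0.25) minus the mean of the 3 WT libraries; red is above and blue below the WT mean. KO-2126 has 49 genes above the WT mean and KO-2124 has 27, while WT-2067 has 39 and WT-2404 has 18.

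The plot of levels by library shows that the spread within a label was wide. Relative to the WT mean, the median gene stood at -0.16 on the log2 scale for WT-2404, -0.08 for WT-1860 and 0.25 for WT-2067. The Het libraries stood at 0.30, 0.48 and 0.28. The KO libraries stood at 0.42, 0.52 and 0.66, except KO-2124, which was at -0.0004. WT-2067 thus lay above KO-2124 and close to the lower Het libraries. WT-2067 had an enzyme share of 71.8%, within the 71.6% to 76.4% of the Het libraries.

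Het libraries were compared with the same 3 WT libraries, so the values of both comparisons share their controls. The median over the 54 genes was 0.37 for Het against WT, beside 0.0047 for all genes, and 46 were above 0, against 50.3% of all genes tested; with library size alone it was -0.92 beside -1.36. No member had an edgeR adjusted p under 0.05 (0 of 54, background 0%), while 13 were higher at an unadjusted p under 0.05, or 24.1% against 8.26%, and 0 were lower, against 11.6%. Every Het library lay above every WT library for 13 members, or 24.1% against 11.3%, and below for Eif4e3, or 1.85% against 13.5%. DESeq2 called 3 members higher, Eef1b2, Eif3i and Eif3m, or 5.66% of the 53 with an adjusted p, against 1.17% of all genes, and 0 lower, against 1.93%. Without WT-2067, edgeR called 8 members higher at an adjusted p under 0.05 in Het against WT, or 14.8% against 4.16%, and 0 lower, against 4.01%.

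Between KO and Het libraries, 0 members passed an adjusted p of 0.05 with edgeR or with DESeq2 (0% of all genes with either tool). The median over the members was -0.0032, beside 0.0077 for all genes, and 25 of 54 were above 0, against 51.4%. At an unadjusted p under 0.05 by edgeR, 0 members were higher, against 0.402% of all genes, and 0 were lower, against 0.351%. Eif4e2 and Eif4e3 had every KO library below every Het library, or 3.70% against 1.16%, and 0 members had every KO library above every Het library, against 1.3%. The mean of Het and KO was also set against WT. Its median over the members was 0.38, beside 0.02 for all genes, with 45 of 54 above 0, against 51.2% of all genes tested, or -0.82 beside -1.26 with library size alone. The smallest edgeR adjusted p among the members, 0.0619, was that of Eef1b2 and Eif3m. In this contrast 17 members were higher at an unadjusted p under 0.05, or 31.5% against 11.7%, and Eif4e3 was lower, or 1.85% against 16.5%. Eef1b2, Eef1d, Eif3h, Eif3i, Eif3m and Eif4a2 were higher in all 7 Het and KO libraries than in any WT library, or 11.1% of members against 3.99%, and Eif4e3 was lower in all 7, or 1.85% against 5.84%. DESeq2 called 8 members higher in this contrast, those 6 and Eef1g and Eif3g, or 14.8% against 4%, and 0 lower, against 8.5%. With the Het and KO mice fitted as 1 group, edgeR called Eef1b2, Eif3g, Eif3i and Eif3m higher at an adjusted p under 0.05, 4 members or 7.41% against 2.07%, and 0 lower, against 5.92%. Without WT-2067, edgeR called 15 members higher at an adjusted p under 0.05, or 27.8% against 8.83%, and Eif4g3 lower, or 1.85% against 11.1%.

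Among the genes of initiator tRNA delivery and start-site recognition, all 9 had KO means above WT means, with a median log2 fold change of 0.33, and for 0 of them was the unadjusted p of this contrast under 0.05. The median was 0.18 with the enzyme share as a covariate. Eif1, whose product guards the choice of the start codon, had the highest mean CPM of this group, at 104 ± 19.6 CPM over WT mice (SD, n = 3), 158 ± 14.04 over Het mice (SD, n = 3) and 145 ± 31.8 over KO mice (SD, n = 4). Its log2 fold change was 0.48 for KO against WT (SE 0.25, edgeR adjusted p = 0.258, or 0.18 with that covariate) and 0.60 for Het against WT (SE 0.27, edgeR adjusted p = 0.235). Of the eIF2 subunits, Eif2s2, the beta subunit, was at 36.6 ± 15.3 CPM over WT mice (SD, n = 3) and 57.1 ± 15.5 over KO mice (SD, n = 4), while Eif2s1, the alpha subunit that the stress kinases phosphorylate, was at 16.4 ± 1.96 and 17.2 ± 0.867 (SD, n = 3 and 4). Eif1b, a close relative of Eif1, was at 8.94 to 9.05 CPM in the 3 WT libraries and at 10.01 to 12.8 in the 4 KO libraries, without overlap, but the Het libraries, at 7.45 to 14.4, covered both ranges.

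The eIF2B genes encode the 5 subunits of the exchange factor that recharges eIF2, the step that eIF2 phosphorylation blocks. All 5 had KO against WT values above 0, between 0.43 and 0.64, with a median of 0.55. With the enzyme share as a covariate they lay between 0.09 and 0.30, with a median of 0.20. Eif2b5, the catalytic subunit, was at 14.1, 17.1 and 22.2 CPM in WT-2404, WT-1860 and WT-2067, at 29.99, 31.1 and 19.9 in the Het libraries and at 26.9, 30.3, 17.7 and 36.0 in the KO libraries. KO-2124, at 17.7, lay inside the WT range, as did Het-2042. Its log2 fold change of KO against WT came to 0.64 (SE 0.26, edgeR adjusted p = 0.172), or 0.30 with that covariate. Eif2b3 was the eIF2B gene whose KO and WT ranges did not overlap, at 3.42 to 4.59 CPM in WT and 4.75 to 6.45 in KO libraries. Of all genes tested, 6.74% had every KO library above every WT library. Het-2066 and Het-2042, at 4.47 and 4.48 CPM, lay within the WT range of Eif2b3, and Het-1770 was at 6.24 CPM.

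eIF3 is the largest initiation factor, a multi-subunit scaffold on the small ribosomal subunit. Its 12 tested genes all had KO against WT values above 0, from 0.05 for Eif3c to 0.84 for Eif3m, with a median of 0.51, and 5 of them were higher at an unadjusted p under 0.05, where 9.6% of all genes tested were. With the enzyme share as a covariate their median was 0.28, and 12 of 12 were above 0. Eif3m (chr2:104999656-105017080, minus strand of mm10) was at 30.3, 33.1 and 51.8 CPM in WT-2404, WT-1860 and WT-2067. The Het libraries gave 85.7, 64.6 and 58.7 CPM and the KO libraries 61.3, 70.5, 63.6 and 79.1 CPM for this gene. All 7 Het and KO libraries were thus above all 3 WT libraries, and Het-2066 was the highest. Exons of Eif3m overlap those of Ccdc73. The KO against WT log2 fold change of Eif3m was 0.84 (SE 0.24, edgeR adjusted p = 0.117, DESeq2 adjusted p = 0.0192), and that for Het against WT was 0.86 (SE 0.25, edgeR adjusted p = 0.183).

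Eif3i, a further eIF3 subunit, was at 32.6, 43.0 and 52.3 CPM in WT, 88.0, 72.1 and 62.4 in Het and 63.1, 70.1, 57.3 and 71.7 in KO libraries, so all 7 lay above the WT range. Eif3h, a subunit on a TOP mRNA, was at 61.4 to 104 CPM in WT and 108 to 144 in KO libraries, also without overlap. Eif3g, an RNA-binding subunit, was at 24.3 to 38.6 CPM in WT and 38.5 to 59.5 in KO libraries, where KO-2124 just overlapped WT-2067. Its KO against WT value was 0.73 (SE 0.22, edgeR adjusted p = 0.121). Eif3a, the largest subunit, had the highest mean CPM of the group and a wide spread, with 118 ± 47.7 CPM over WT mice (SD, n = 3) and 182 ± 59.3 over KO mice (SD, n = 4). Eif3c, a core subunit, was nearly level, with 61.8 ± 7.11 CPM over WT mice (SD, n = 3) and 63.9 ± 17.7 over KO mice (SD, n = 4). Values of these subunits thus differed in size, and no test compared them with each other. Eif3b, another core subunit, was among the members with the smallest p in KO against Het, at 0.13 (SE 0.22, edgeR adjusted p = 1.0).

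Values of the cap-binding and helicase genes were spread to both sides of 0. Their median for KO against WT was 0.12, with 8 of 10 above 0 and a range from -1.14 to 0.88. Fitted with the enzyme share as a covariate, the median was 0.04. Eif4a2 (chr16:23107444-23114136, plus strand of mm10), one of the RNA helicases that open the 5′ end, was at 69.7, 103 and 153 CPM in WT-2404, WT-1860 and WT-2067. The Het libraries gave 266, 159 and 158 CPM and the KO libraries 184, 205, 182 and 228 CPM, all above the WT range. Its log2 fold change of KO against WT came to 0.88 (SE 0.31, edgeR adjusted p = 0.135, DESeq2 adjusted p = 0.0429), and 0.52 with the enzyme share as a covariate (SE 0.27, edgeR adjusted p = 0.872). Exons of Eif4a2 overlap exons of Rfc4, and reads of the overlap can fall to either gene. Eif4a1, the paralog with the same helicase function, was at 103, 91.6 and 90.4 CPM in WT, 101, 108 and 87.6 in Het and 99.5, 92.4, 87.9 and 115 in KO libraries, with overlapping ranges throughout. Its KO against WT value was 0.06 (SE 0.20, edgeR adjusted p = 0.889). Per kb of exon the helicase genes had like mean levels, 55.0 CPM for Eif4a1 and 53.4 for Eif4a2.

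Eif4e3, a cap-binding relative of eIF4E, was the member with the lowest KO against WT value. It was at 6.85, 4.70 and 4.23 CPM in WT-2404, WT-1860 and WT-2067, 3.33, 3.45 and 3.44 in Het and 2.90, 2.502, 3.09 and 0.909 in KO libraries. The 3 labels did not overlap, in the order WT, Het and KO, and KO-2126 was the lowest library, with 9 counts. The gap between Het and KO was narrow, from Het-2066 at 3.33 CPM (38 counts) to KO-2124 at 3.09 CPM (67 counts). How many of all genes tested show such an order of the 3 labels was not counted. The log2 fold change was -1.14 for KO against WT (SE 0.35, edgeR adjusted p = 0.121, DESeq2 adjusted p = 0.0379), -0.64 for Het against WT (SE 0.37, edgeR adjusted p = 0.339) and -0.51 for KO against Het (SE 0.36, edgeR adjusted p = 1.0). Without KO-2126 the KO against WT value was -0.89, and with the enzyme share as a covariate it was -0.76 (SE 0.37, edgeR adjusted p = 0.869). Exons of Eif4e3 overlap those of Gm20696. The fibroblast marker sum was also lower in every Het and KO library (437 to 1097 CPM) than in any WT library (1220 to 4324 CPM). So was the ductal marker sum, at 242 to 575 CPM against 677 to 1336 CPM. The part of either in the value of Eif4e3 was not tested.

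Eif4e itself, the main cap-binding protein, was at 11.1 ± 1.63 CPM over WT mice (SD, n = 3) and 13.0 ± 2.42 over KO mice (SD, n = 4), with a log2 fold change of 0.22 (SE 0.19, edgeR adjusted p = 0.494). Eif4e2, a cap-binding protein tied to repression of translation, was at 17.9 to 21.1 CPM in WT, 22.01 to 24.04 in Het and 18.3 to 21.99 in KO libraries. Its Het values lay just above both other groups, and KO against Het was -0.20 (SE 0.15, edgeR adjusted p = 1.0). Eif4g1, the main eIF4G, was at 137 ± 47.4 CPM over WT mice (SD, n = 3) and 189 ± 49.8 over KO mice (SD, n = 4). Eif4g2, a scaffold that lacks the eIF4E-binding site and had the highest mean CPM of the group, was at 248 ± 36.6 and 283 ± 73.1 (SD, n = 3 and 4). Eif4g3 was at 32.9 ± 10.2 CPM over WT mice (SD, n = 3) and 27.1 ± 2.74 over KO mice (SD, n = 4), with a log2 fold change of -0.28 (SE 0.21, edgeR adjusted p = 0.429). That value of Eif4g3 was -0.03 with the enzyme share as a covariate (SE 0.23, edgeR adjusted p = 0.996). It was -0.16 without WT-2404, -0.13 without WT-1860 and -0.51 without WT-2067. The covariate also moved the value of Eif4g1 from 0.46 to 0.07.

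The eIF4E-binding proteins hold eIF4E away from eIF4G until mTORC1 phosphorylates them. Eif4ebp1 (chr8:27260329-27276674, plus strand of mm10) was at 21.7, 31.5 and 48.8 CPM in WT-2404, WT-1860 and WT-2067. The Het libraries gave 53.6, 81.7 and 44.1 CPM and the KO libraries 54.7, 73.3, 32.5 and 71.9 CPM, so Het-2042 and KO-2124 fell within the WT range. Its log2 fold change of KO against WT came to 0.77 (SE 0.35, edgeR adjusted p = 0.205), and with the enzyme share as a covariate to 0.23 (SE 0.30, edgeR adjusted p = 0.971). Eif4ebp2 was at 18.1 ± 5.47 CPM over WT mice (SD, n = 3), 13.5 ± 1.84 over Het mice (SD, n = 3) and 13.2 ± 3.23 over KO mice (SD, n = 4), with a KO against WT value of -0.46 (SE 0.24, edgeR adjusted p = 0.264). Eif4ebp3 was at 3.84 ± 1.45 CPM over WT mice (SD, n = 3) and 5.44 ± 1.40 over KO mice (SD, n = 4). It had the highest value of the members with the smallest p in KO against Het, 0.31 (SE 0.31, edgeR adjusted p = 1.0). Eif4enif1, which encodes the eIF4E transporter 4E-T, was at 12.7 ± 1.27 CPM over WT mice (SD, n = 3) and 11.2 ± 1.12 over KO mice (SD, n = 4).

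The elongation genes had the highest median of any role group, 0.62 for KO against WT and 0.64 for Het against WT. That KO against WT median was 0.31 with the enzyme share as a covariate. Eef1b2 (chr1:63176825-63180486, plus strand of mm10) encodes the exchange factor that reloads eEF1A with GTP. It was at 134, 182 and 270 CPM in WT-2404, WT-1860 and WT-2067, at 485, 363 and 360 in the Het libraries and at 397, 455, 346 and 420 in the KO libraries. All 7 Het and KO libraries were above the WT range. Its log2 fold change was 1.05 for KO against WT (SE 0.30, edgeR adjusted p = 0.116, DESeq2 adjusted p = 0.00504), the highest of the 54 members. The same gene gave 1.04 for Het against WT (SE 0.32, edgeR adjusted p = 0.183, DESeq2 adjusted p = 0.0191) and 0.0063 for KO against Het (SE 0.29, edgeR adjusted p = 1.0). With the enzyme share as a covariate its KO against WT value was 0.71 (SE 0.24, edgeR adjusted p = 0.836).

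Eef1d (chr15:75894205-75909556, minus strand of mm10), a further exchange subunit whose exons overlap those of Naprt, was at 42.7, 57.1 and 72.8 CPM in WT, 89.5, 84.3 and 96.2 in Het and 91.2, 92.3, 81.2 and 93.9 in KO libraries. Its ranges did not overlap the WT range, and its KO against WT value was 0.64 (SE 0.22, edgeR adjusted p = 0.131), or 0.38 with the enzyme covariate. Eef1g, the anchoring subunit, was at 135 ± 36.3 CPM over WT mice (SD, n = 3), 209 ± 10.3 over Het mice (SD, n = 3) and 225 ± 58.8 over KO mice (SD, n = 4). Eef1a1 (chr9:78478449-78489151, minus strand of mm10) was at 1844, 1859 and 2727 CPM in WT, 4193, 3393 and 2712 in Het and 3089, 3632, 2209 and 4101 in KO libraries. Het-2042 and KO-2124 fell within the WT range, and the KO against WT value was 0.60 (SE 0.41, edgeR adjusted p = 0.378), or 0.34 with the enzyme covariate. Eef1a1 has many processed copies in the genome, to which its reads could be split or lost. Eef2 was at 985 ± 377 CPM over WT mice (SD, n = 3) and 1566 ± 581 over KO mice (SD, n = 4), and its KO against WT value was 0.67 (SE 0.42, edgeR adjusted p = 0.338), or 0.28 with the enzyme covariate.

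Of the factors that help stalled ribosomes, Eif5a, the hypusine-carrying protein, was at 149 ± 20.2 CPM over WT mice (SD, n = 3) and 191 ± 49.8 over KO mice (SD, n = 4). Its paralog Eif5a2 was rare, with 2 to 121 counts per library, and stood at 2.02, 1.80 and 1.59 CPM in WT, 1.14, 0.932 and 1.60 in Het and 0.618, 1.32, 1.15 and 0.202 in KO libraries. KO libraries were below the WT range, but the value rests on few counts, with 2 in KO-2126. Eef1a2 gave -0.84 for KO against Het with an SE of 1.01 (edgeR adjusted p = 1.0). Among the modifiers, Eef2k, the kinase that inactivates eEF2, was at 19.5 ± 5.73 CPM over WT mice (SD, n = 3) and 20.98 ± 4.96 over KO mice (SD, n = 4). Eef2kmt, a methyltransferase acting on eEF2, was at 7.53 ± 1.81 and 11.9 ± 2.45 CPM (SD, n = 3 and 4), with a KO against WT value of 0.65 (SE 0.25, edgeR adjusted p = 0.155). The 4 remaining genes, whose products act elsewhere or by other routes, had a median of -0.03. Eif4a3, the helicase of the exon junction complex and the most abundant of them, was at 18.5 ± 1.53 CPM over WT mice (SD, n = 3) and 19.5 ± 3.88 over KO mice (SD, n = 4). Eif6, an anti-association factor of the large ribosomal subunit, gave -0.19 for KO against WT (SE 0.20, edgeR adjusted p = 0.577) and -0.20 for KO against Het (SE 0.20, edgeR adjusted p = 1.0). Eif1ad gave -0.11 for Het against WT (SE 0.26, edgeR adjusted p = 0.823), and Eef1e1, part of the tRNA synthetase complex, was the other gene of this group.

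**Figure D3:**
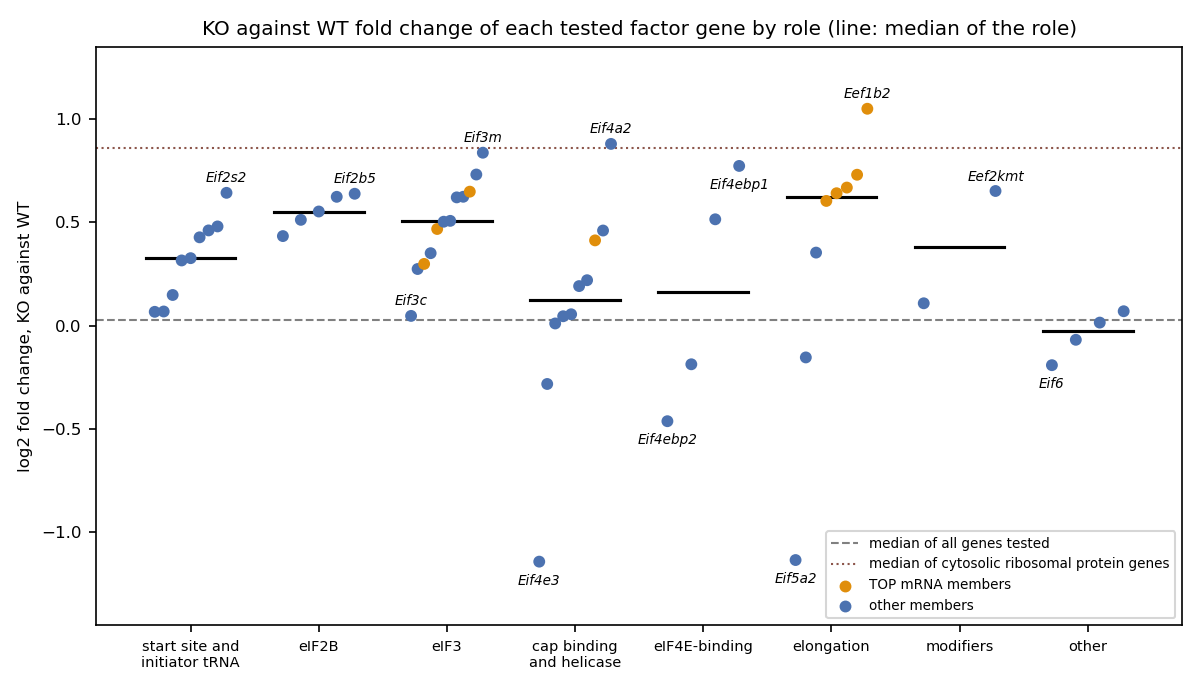
KO against WT log2 fold change (vertical axis) of each tested factor gene, 1 point per gene, grouped by role on the horizontal axis with the median of each group as a black line; orange points are genes of the TOP mRNA list. Group medians run from -0.03 in the last group to 0.62 for elongation, the dashed line is the median of all genes tested (0.03) and the dotted line that of the ribosomal protein genes (0.86).

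**Figure D4:**
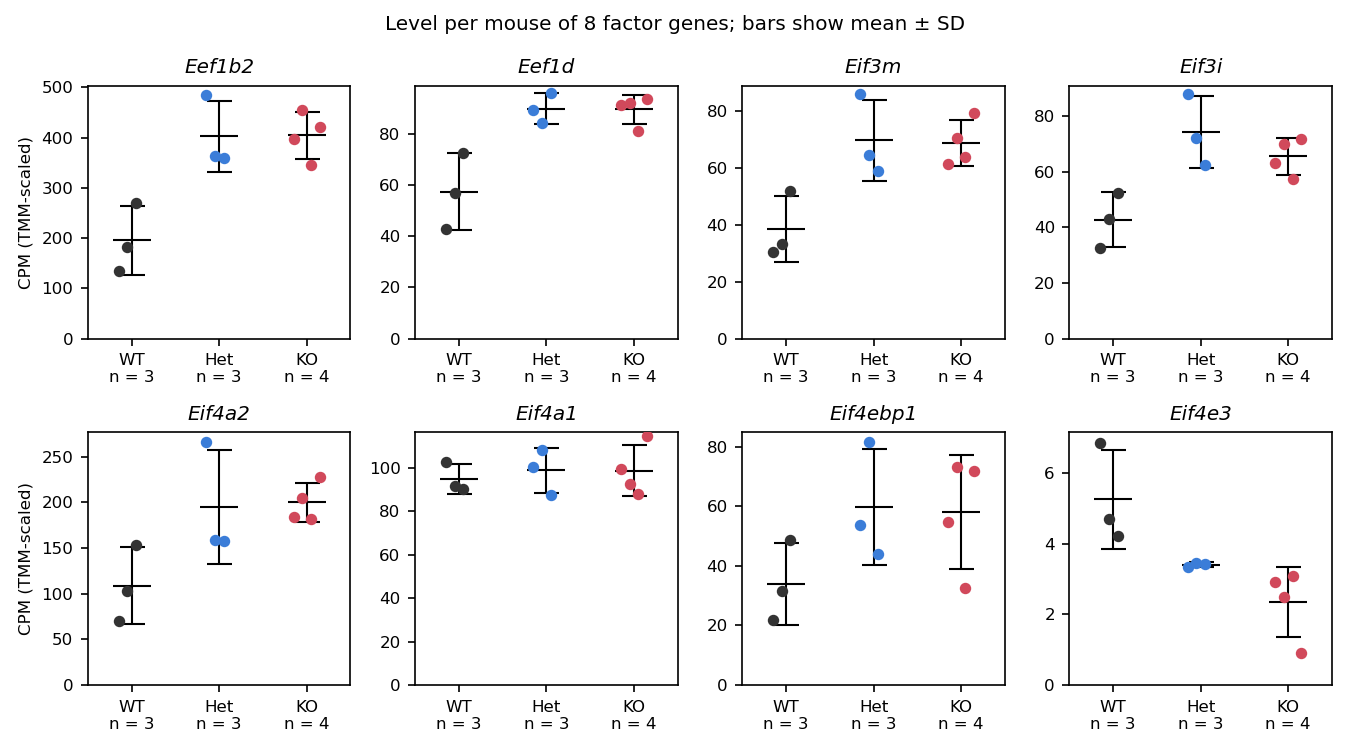
Level (vertical axis, CPM) in each mouse for 8 factor genes, by label on the horizontal axis; points are mice and bars show the mean ± SD for WT (n = 3), Het (n = 3) and KO (n = 4). Eef1b2, Eef1d, Eif3m, Eif3i and Eif4a2 have all Het and KO mice above the WT mice, Eif4e3 has them below, and Eif4a1 and Eif4ebp1 overlap.

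The 9 members taken as TOP mRNAs, by a list from general knowledge that may miss TOP genes, all had KO against WT values above 0. The list was set with earlier results of these data known. Of the 45 tested members outside it, 37 were above 0 and 8 below, among them Eef1a2 at -0.15 (SE 1.03). The median of the 9 was 0.64 for KO against WT and 0.63 for Het against WT, against 0.33 and 0.30 for the 45 others. Ribosomal protein genes, the main class of TOP mRNAs, gave a median of 0.86 for KO against WT over 82 tested genes, of which 80 were above 0, where 51.8% of all genes tested were. By edgeR 0 of these 82 had an adjusted p under 0.05, and 74 were higher at an unadjusted p under 0.05, against 9.6% of all genes tested. DESeq2 called 67 of them higher, against 2.14% of all genes. A tract was looked for in the sequence around the annotated transcription start, and a few members are shown to compare the tract with the values. Sequences are from RefSeq (GRCm38.p6), 5′ to 3′ on the gene's strand, with the pyrimidine tract in capitals.
Eef1a1: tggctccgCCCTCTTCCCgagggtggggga
Eif3f: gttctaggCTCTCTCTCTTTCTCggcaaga
Eif4b: ccgcgccaCCCCCTCgcgctgctttacgaa
Eif3m: cggcaccgCTCTCTTTTCCggtcggcgtgt
Eef1b2: gcagttccgccggaagtagccgaggccttg
They lie at chr9:78481708-78481737 (minus strand) for Eef1a1 and chr7:108934403-108934432 (plus) for Eif3f. Those of Eif4b, Eif3m and Eef1b2 lie at chr15:102073775-102073804 (plus), chr2:105017026-105017055 (minus) and chr1:63176823-63176852 (plus).

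A tract was counted where a C was followed by at least 6 letters that were each C or T, on the gene's strand, with its first base within 20 bases of an annotated start. Of the 5 TOP members with a sequence, 4 held a tract, among them Eef1a1, Eif3f and Eif4b, while Eef1b2, the member with the highest fold change, had none in this window. The tract of Eif3m, which is not on the TOP list, has 11 bases, and that of Eif3f has 15. Relative to the annotated start, tracts began at base -5 for Eef1a1, -4 for Eif3f, -20 for Eif3m and 10 for Eif4b. The tract of Eif3m thus lies wholly upstream of its RefSeq start and the tract of Eif4b wholly downstream. For Eif3m the RefSeq and GENCODE starts differ, and its tract lies within the gene range given above, which is from GENCODE. Over all members, 14 of the 43 with a sequence held a tract, or 32.6%, against 24.0% of the 27025 genes in the table of starts and 57.8% of the 64 ribosomal protein genes with a sequence. The median KO against WT value was 0.36 for members with a tract and 0.35 for members without one. Outside the TOP list, 10 of the 38 members with a sequence held a tract, Eif3m among them. Their median was 0.25, against 0.35 for those without a tract. Eef1d, Eef1g, Eif3e and Eif3h are TOP members with no entry. A tract of these letters describes the sequence around the annotated start. Where each message starts in this tissue was not measured, so a tract does not show that it is a TOP mRNA, nor does a missing tract show the reverse.

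Ratios of related genes within a library do not depend on scaling, but they can still differ with the cell make-up of a piece. That part was not tested. Enzyme shares were 15.9%, 58.6% and 71.8% in WT-2404, WT-1860 and WT-2067. Of the pairs, 6 had at least 10 counts of each gene in every library. Eif4a2 had 0.678, 1.12 and 1.69 counts per count of Eif4a1 in WT-2404, WT-1860 and WT-2067, 2.65, 1.47 and 1.80 in the Het libraries and 1.85, 2.22, 2.07 and 1.98 in the KO libraries. KO libraries lay above the WT range, while Het-1770 lay within it. The log2 ratio of Eif4a1 to Eif4a2 was -0.12 ± 0.66 over WT mice (SD, n = 3) and -1.02 ± 0.11 over KO mice (SD, n = 4), a difference of -0.90 (exact permutation test, two-sided, p = 0.0571, adjusted p = 0.171 over 6 pairs). That p is the smallest that 3 against 4 mice allow, so this comparison cannot pass 0.05. Without WT-2404 the difference was -0.55. Over all 7 Het and KO mice the difference was -0.86 (exact permutation test, p = 0.0333, adjusted p = 0.1).

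Eif4ebp1 had 1.005, 2.67 and 2.33 counts per count of Eif4ebp2 in the WT libraries in the same order, 3.59, 5.75 and 3.85 in Het and 4.05, 6.23, 3.23 and 4.08 in KO libraries. All 7 Het and KO libraries were above the WT range. The log2 ratio differed by 1.22 between KO and WT (exact permutation test, two-sided, p = 0.0571, adjusted p = 0.171) and by 1.22 between the 7 Het and KO mice and WT (exact permutation test, p = 0.0167, the smallest it can give, adjusted p = 0.1). Without WT-2404 the KO against WT difference was 0.78. The pairs Eif4g1 with Eif4g2, Eif4g1 with Eif4g3, Eif4e with Eif4e2 and Eif1 with Eif1b had overlapping ranges. Their KO against WT differences were 0.31, 0.71, 0.18 and 0.14, and their adjusted exact permutation p-values were 0.229, 0.343, 0.514 and 0.480. No pair passed 0.05 after adjustment.

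**Figure D5:**
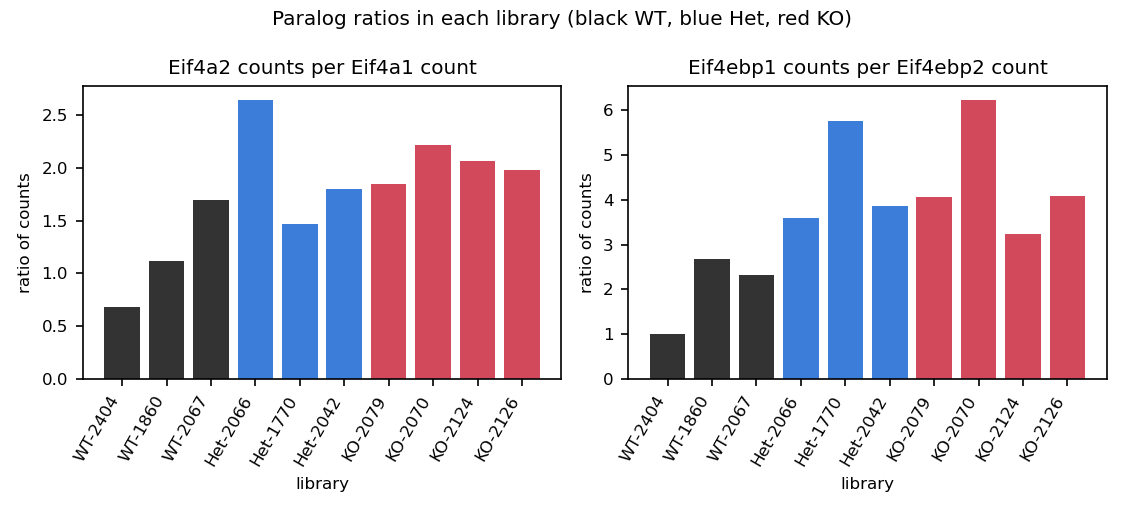
Ratio of counts (vertical axis) of Eif4a2 to Eif4a1 (left) and of Eif4ebp1 to Eif4ebp2 (right) in each of the 10 libraries (horizontal axis), with WT in black, Het in blue and KO in red. WT-2404 is the lowest library in both panels, at 0.678 and 1.005, and KO libraries stand at 1.85 to 2.22 on the left and 3.23 to 6.23 on the right.

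Other genes of translation were described by list, beside a median of 0.03 over all genes tested, and 0 of them passed edgeR's adjusted p of 0.05 in KO against WT. Their counts stand beside 51.8% of all genes tested above 0, and 9.6% higher and 13.9% lower at an unadjusted p under 0.05. The cytosolic tRNA synthetases had a median of 0.42, with 18 of 20 above 0, and 3 were higher at an unadjusted p under 0.05. Among 6 eIF2 kinase and phosphatase-subunit genes the median was 0.49, with 2 higher and 1 lower at that p. Eif2ak4, which encodes the amino-acid sensing kinase GCN2, was at 7.83 and 11.7 CPM in WT and KO means, a value of 0.60 (SE 0.20, edgeR adjusted p = 0.126). Eif2ak2, the kinase PKR of the antiviral response, was at 8.06 and 5.16 CPM, a value of -0.64 (SE 0.29, edgeR adjusted p = 0.208). The 10 genes linking mTORC1 to translation had a median of 0.35, with 2 higher and 1 lower at an unadjusted p under 0.05. Pdcd4, an inhibitor of eIF4A, was at 0.77 (SE 0.33, edgeR adjusted p = 0.185), and Mknk2, an eIF4E kinase, at -0.57 (SE 0.22, edgeR adjusted p = 0.160). The 9 genes of poly(A) binding, termination and recycling had a median of 0.48, and 2 were higher at an unadjusted p under 0.05. Pabpc1, the main poly(A)-binding protein, was at -0.46 (SE 0.24, edgeR adjusted p = 0.255) and Pabpc4 at 0.98 (SE 0.48, edgeR adjusted p = 0.233). The 9 hypusine and diphthamide enzyme genes had a median of 0.30 and 2 higher at an unadjusted p under 0.05, among them Dohh, which completes hypusine on eIF5A, at 0.71 (SE 0.25, edgeR adjusted p = 0.133).

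Within the members, genes with a shorter total exon length tended to have higher KO against WT values. Spearman's rho between exon length and log2 fold change was -0.44 over the 54 tested members and -0.09 over 13202 tested genes with a length. This is a description across genes that share the same 10 libraries. Exons of 18 members overlap exons of another gene, so their counts are uncertain to that extent.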

How the data were processed

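Per the labels' protocols, a Qiagen RNeasy kit gave the RNA and a NEBNext stranded mRNA kit the libraries. The authors deposited a table of raw counts, 1 row per gene symbol, which hold whole numbers whose sums differ between libraries. The submitters' processing notes name mm10, DRAGEN, STAR and Cufflinks, with no version or role. The counting tool, annotation and strand setting are not given in the sources used here. Another allele carried by all groups alike is not reported here, and 1 WT mouse counted in the labels was not analysed here. Each of the 10 columns was matched to a mouse by the genotype and number in its name. Rows without a gene name were kept out of the totals, and reads outside genes were 2.59% to 8.71% of counts.

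Of 24421 genes, 13688 passed edgeR's filterByExpr (minimum count 10). Genes were tested with edgeR 4.0.16 (R 4.3.3), quasi-likelihood, robust, TMM factors, 1 fit over all 10 libraries without covariates, with Benjamini-Hochberg adjustment over all genes tested and a threshold of 0.05. The labels give no batch or date. CPM are counts divided by the TMM-scaled library size, times 1e6, and differences set against the WT mean used log2(CPM + 0.25). DESeq2 1.42.0 was an alternative, with other scalings, filters, a covariate and each library left out. Pairs of genes were compared by the log2 ratio of counts plus 0.5 with exact permutation tests (SciPy 1.17.1). Exon lengths and coordinates are from GENCODE M21 basic (mm10), where all 57 members matched. Within labels, chi-square per degree of freedom between libraries was 28.7 to 1041, so each library counted as 1 replicate. On data simulated for KO against WT over 13328 genes, edgeR recovered 18.0% of 100 genes changed 2-fold and 95.0% of 100 changed 4-fold. The simulation gave every gene and label the same fixed spread between mice, unlike the data, so these shares are not the power in these libraries. The members and lists were chosen with earlier results of these data known. Named with values are, per contrast, up to 6 members higher and up to 6 lower with the smallest unadjusted p, the most abundant member of each role group, both genes of each pair used and the untested members. Further genes of a role group or list, those shown with sequences and those whose ranges did not overlap were named after their values were seen.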

Additional observations from a re-analysis of the deposited data

Results flagged for a closer look

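The level of Eif4enif1 in KO-2126 was 12.8 CPM, apart from the other KO libraries at 10.4 to 10.8 CPM, with a gap of 0.83 of the range of the 4 libraries. In the KO libraries, 48 measures were examined in this way for 1 library far from the rest. They were levels of named members, shares of the role groups, ratios of gene pairs and the share of all members. The level of Eif4enif1 was the 1 measure that stood out, where chance would give 2.4.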

How the results depend on the processing

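No paired analysis was possible because mouse numbers are not shared between the labels. Of the member counts past an adjusted p of 0.05, 0 with edgeR in each contrast, DESeq2 gave 6 for KO against WT, 3 for Het against WT and 8 for the mean of Het and KO against WT, and edgeR with Het and KO mice as 1 group gave 4, all higher, or 7.41% of members against 2.07% of all genes tested. With each library left out, edgeR counts in the contrasts with WT ranged from 0 to 10, 0 to 8 and 0 to 16. The highest were without WT-2067, where 16.7%, 14.8% and 27.8% of members were higher, against 6.22%, 4.16% and 8.83% of all genes tested. Lower were 1.85%, 0% and 1.85%, against 7.42%, 4.01% and 11.1%. With library size alone the medians were -0.80, -0.92 and -0.82 in these 3 contrasts, and with the enzyme share as a covariate 0.15, 0.15 and 0.14; the cause was not tested. With each library left out, the median for Het against WT ranged from 0.28 to 0.58, and the KO against WT ratio of Eif1 to Eif1b from -0.020 to 0.26. Other directions turned for single genes. With the enzyme covariate, Eef2k was at -0.063, -0.036 and -0.049 in the 3 contrasts, and Eif6 at 0.076 in the last. With single libraries left out, the ranges that crossed 0 were -0.067 to 0.37, -0.035 to 0.40 and -0.039 to 0.38 for Eef2k, and -0.18 to 0.098 for Eif6 in the last. For KO against WT they were -0.026 to 0.11 for Eif4a1, -0.054 to 0.16 for Eif4a3 and -0.014 to 0.11 for Eif4e2. For Het against WT they were -0.0092 to 0.14 for Eif4a1, -0.20 to 0.058 for Eif1ad and -0.16 to 0.36 for Eif1b. For KO against Het they were -1.23 to 0.12 for Eef1a2, -0.017 to 0.33 for Eef2kmt, -0.031 to 0.49 for Eif1b and -0.037 to 0.30 for Eif3c. Few mice and the enzyme share, which differs most in WT-2404, limit all comparisons with WT. Low counts limit Eif4e3, Eif5a2 and Eef1a2.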
